A study of Mus musculus with 12 samples.

Results

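The transcriptomes of 2 mouse ESC lines that differ in the inserted PRAMEL7 protein were compared directly, ESC + H/F-PRAMEL7 WT against ESC + H/F-PRAMEL7 ΔN. All genes with a value above 0 in both libraries of at least 1 of the lines were taken as members, which gave 19087 of the 48007 genes that could be matched to the annotation. Of these, 16449 were detected in both libraries of both lines, 1353 only in both libraries of the WT line and 1285 only in both libraries of the ΔN line. Both lines derive from E14 ESCs grown in medium with 15% serum and LIF, and both express HA/FLAG-tagged PRAMEL7 from the CAG promoter at the *Rosa26* locus after insertion with Cas9, puromycin selection and isolation of single-cell clones. ESC + H/F-PRAMEL7 WT carries the full protein, and ESC + H/F-PRAMEL7 ΔN carries a protein that lacks its N-terminal 50 amino acids according to the sample labels, whereas the text of the study gives a shorter deletion. Polyadenylated RNA was sequenced from 2 independent dishes per line according to the labels, whereas the methods of the study speak of triplicates. The series also holds 2 RNA libraries of parental E14 ESCs without an insertion, which took no part in any test and are given as further values, and CHD4 ChIP-seq libraries, which were not analysed here. The comparison asks which transcripts depend on the N-terminus of PRAMEL7 when a PRAMEL7 protein is expressed in either case. Since the dishes of a line come from 1 clonal line, P values refer to the spread between dishes and not between clones. The test, limma, took this spread mostly from genes of similar level and not from the single gene (prior degrees of freedom 15.02). An effect of the N-terminus and a difference between the clones cannot be told apart.

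PRAMEL7 belongs to the PRAME family of leucine-rich repeat proteins, many of which are expressed in the germline and the early embryo. Its N-terminus holds a BC box and a Cul2 box, short motifs through which substrate receptors bind Elongin C and the scaffold protein CUL2. Cullin-RING ligases of this kind attach ubiquitin to the proteins bound by the receptor and mark them for the proteasome. ESCs in serum and LIF are pluripotent and heterogeneous, with naive genes such as *Klf4* and genes of the later, formative epiblast such as *Otx2* expressed in the same culture.

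*Pramel7* itself was more abundant in the line with the shortened protein. It lies on chromosome 2 from 87489087 to 87497093 on the minus strand of GRCm38. Values are given as CPM, the reads of a gene scaled to the reads on all genes of a library, a scale on which a gene can be compared between libraries but not with genes of another length. *Pramel7* had 51.2 and 46.2 CPM in the libraries of the WT line and 397.7 and 430.9 CPM in those of the ΔN line. The libraries of parental ESCs had 0.258 and 0.217 CPM. Both derived lines were thus far above the parental level, and the mean of 414.3 ± 23.5 CPM (SD, n = 2) in the ΔN line was 8.51-fold that of 48.7 ± 3.49 CPM (SD, n = 2) in the WT line. The log2 fold change, on log2(CPM + 1) and with the ΔN line as the reference as in all that follows, was -3.06 (standard error 0.08, adjusted p = 1.83e-14 from limma). The lines therefore differed in the amount of *Pramel7* transcript as well as in its sequence, and their parts in the differences below cannot be told apart. The values do not separate the inserted sequence from the endogenous gene. The first 50 codons of *Pramel7*, which the deletion in the labels would remove, lie within a coding sequence of 1437 bases without the stop codon. They are shown because the deletion defines the ΔN line, although with the shorter deletion the last of these codons would remain, from chr2:87492269-87492418 of GRCm38, read on the minus strand, with the start codon in capitals.
Pramel7, codons 1 to 50: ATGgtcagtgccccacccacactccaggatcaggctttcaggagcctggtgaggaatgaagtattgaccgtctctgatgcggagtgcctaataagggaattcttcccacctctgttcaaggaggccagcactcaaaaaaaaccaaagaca

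Of 12546 members above 1 CPM in at least 2 of the 4 libraries, 909 were higher (7.25%) and 684 lower (5.45%) in the WT line than in the ΔN line. A gene was called with an adjusted p under 0.05 from limma, adjusted by Benjamini-Hochberg over the 12546 genes, and an absolute log2 fold change above 0.58. Calls in either direction made up 12.7% of the tested genes. The median log2 fold change of all tested genes was -0.02. In the more stringent range above 1 on the log2 scale lay 276 higher and 111 lower genes, and above 2 lay 41 higher and 6 lower genes. Most called genes encode proteins, 852 of the higher and 651 of the lower genes, as do 11815 of the 12546 tested genes. Of 157 tested lincRNA genes 24 were higher and 11 lower. The remaining 6541 members were too low for the test. Libraries held between 18252439 and 19852961 reads on genes. Across genes, log2 values of both dishes of a line correlated with Pearson's r of 0.9967 in the WT line and 0.995 in the ΔN line, and the variance between dishes was 5.14 and 10.1 times that expected from counting alone. For 8679 tested genes (69.2%) the libraries of the lines did not overlap, a share against which statements on overlap have to be read. The gene lists below are described by their counts beside these shares of all tested genes. Where a list had 0 genes called in a direction by limma, the count was also 0 with the unadjusted p and with voom at the same limit on the fold change, and the number with an unadjusted p under 0.05 at any fold is given.

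**Figure D1:**
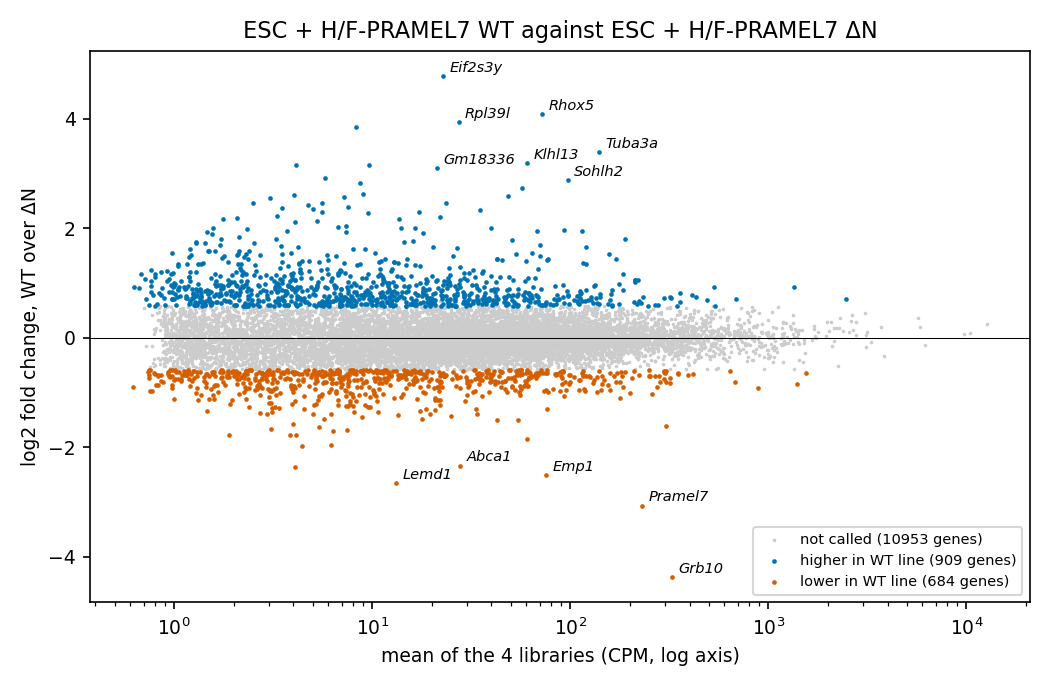
Log2 fold change of ESC + H/F-PRAMEL7 WT over ESC + H/F-PRAMEL7 ΔN (vertical axis) against the mean of the 4 libraries (CPM, log axis) for the 12546 tested genes, each a point. The 909 higher and 684 lower genes are coloured, and the higher genes extend further from 0, with 41 above 2 against 6 below -2.

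The markers that define ESCs were expressed in both lines. *Pou5f1* and *Sox2*, core factors of pluripotency, had 823.0 and 855.4 CPM and 172.1 and 209.2 CPM in the WT line and 774.9 and 758.9 CPM and 165.4 and 190.3 CPM in the ΔN line. Neither passed the test, with log2 fold changes of 0.13 (95% interval -0.02 to 0.28) and 0.10 (-0.10 to 0.29). The ESC markers *Nanog*, *Zfp42*, *Esrrb* and *Dppa5a* were lower in the WT line with adjusted p from limma between 2.49e-05 and 0.0147, all by less than the limit on the fold change, and *Sall4* had 0.30 (adjusted p = 0.00367).

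Called genes were spread unevenly over the chromosomes. Chromosome 6 held 592 of the tested genes (4.719%) and 188 of the 684 lower genes (27.485%). Its median log2 fold change was -0.40, and 76.858% of its genes had a negative value. The shift was not the same along the chromosome, whose stretches were chosen after seeing the values. In the 119 genes between 80 and 100 Mb the median was 0.02, with 10 higher and 5 lower genes, and in the other 473 it was -0.49, with 17 higher and 183 lower genes. Relative to the mean of the parental libraries, the genes of chromosome 6 had medians of -0.228 and -0.258 in the libraries of the WT line and 0.229 and 0.261 in those of the ΔN line, so the lines lay on opposite sides of the parental level. The X chromosome held 73 higher genes among 430 (16.977%) and 17 lower ones. Of the higher ones, 37 lay between 90 and 120 Mb, where the median of 87 genes was 0.54, whereas the other 343 genes had a median of -0.07 and included all 17 lower ones.

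All 5 tested genes of the Y chromosome were higher in the WT line. Summed over these genes, the libraries had 75.5 and 78.9 CPM in the WT line, 0.8 and 1.4 CPM in the ΔN line and 44.8 and 32.9 CPM in parental ESCs. *Eif2s3y*, which encodes a subunit of a translation initiation factor, accounted for most of this sum, with 43.9 and 45.7 CPM in the WT line and 0.452 and 0.897 CPM in the ΔN line. *Kdm5d*, a histone demethylase gene on the same chromosome that was chosen after its values were seen, had 43 and 31 reads in the WT line and 0 in both libraries of the ΔN line, at least 25.3-fold higher with a floor of 3 reads over the line. The median of 10 mitochondrial genes was -0.24. Their summed values were 14992.1 and 13037.7 CPM in the WT line and 13286.8 and 20381.3 CPM in the ΔN line. The former ΔN value lay between those of the WT line and the latter above both. The 18 other autosomes had medians between -0.066 and 0.067. The part of these chromosome-wide shifts in any single gene on chromosomes 6, X or Y was not tested, and the chromosome of each such gene is given below. Without chromosomes 6, Y and M, 877 higher and 495 lower genes remained among 11939.

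**Figure D2:**
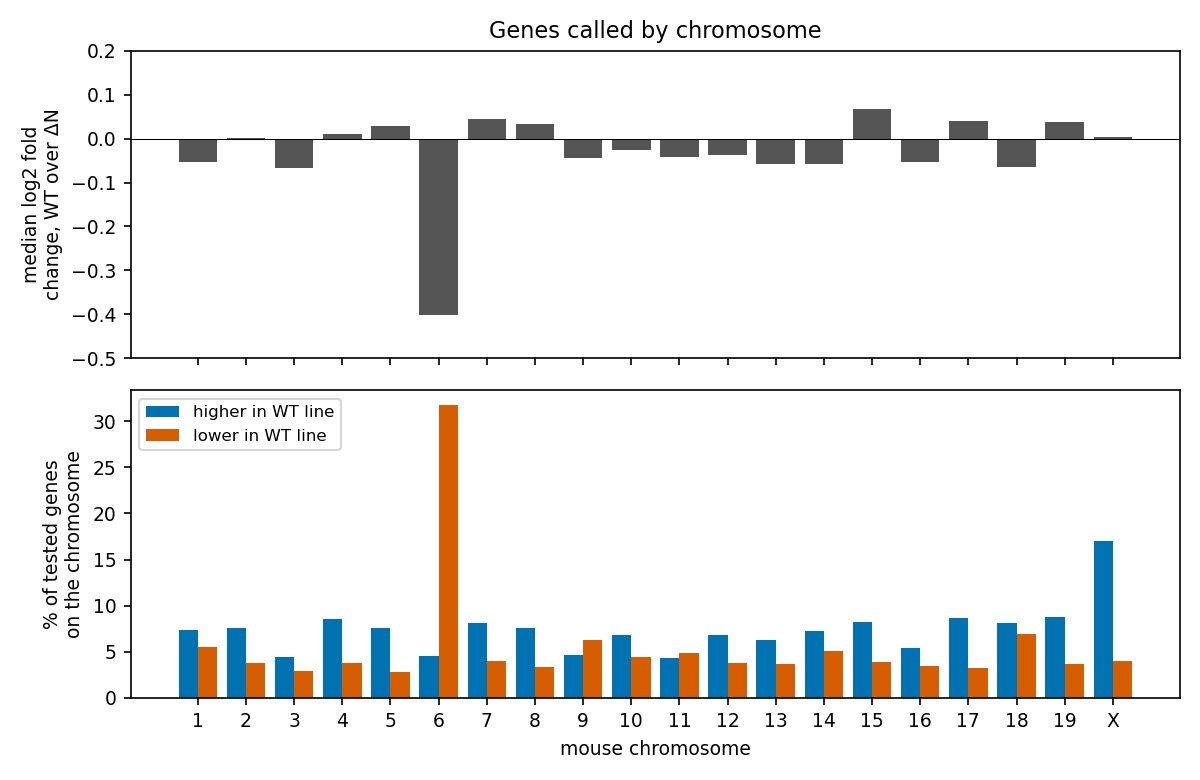
The upper panel shows the median log2 fold change of WT over ΔN for the tested genes of each autosome and of the X chromosome, and the lower panel the percentage of those genes called higher or lower, as bars from 0. Chromosome 6 stands apart with a median of -0.40 and 31.757% of its genes lower, and the X chromosome has the highest share of higher genes, 16.977%.

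The largest differences in favour of the WT line included genes of the germline and of the X chromosome. *Rhox5*, a homeobox gene of the X-linked reproductive cluster, had 129.6 and 144.3 CPM in the WT line and 8.78 and 5.75 CPM in the ΔN line, a log2 fold change of 4.08 (standard error 0.13, adjusted p = 5.49e-13). *Rpl39l*, a testis-enriched copy of a ribosomal protein gene on chromosome 16, had 50.7 and 53.6 against 2.21 and 2.75 CPM (3.94). *Tuba3a*, a testis alpha-tubulin on chromosome 6, had 255.4 ± 7.59 against 23.4 ± 0.617 CPM (SD, n = 2). Its log2 fold change was 3.39 (adjusted p = 5.36e-15), against the direction of its chromosome. For each of these genes the parental libraries lay between the lines, with 38.5 and 49.5 CPM for *Rhox5*, 23.3 and 19.7 CPM for *Rpl39l* and 62.2 and 82.1 CPM for *Tuba3a*. *Rpl39l* and *Tuba3a* have close copies elsewhere in the genome, and reads could have been split between copies. Likewise, without strand information reads of overlapping genes cannot be told apart.

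*Sohlh2*, a transcription factor of early germ cell differentiation on chromosome 3, had 178.6 and 166.4 CPM in the WT line, 21.7 and 23.2 CPM in the ΔN line and 104.3 and 108.4 CPM in parental ESCs, with a log2 fold change of 2.89 (standard error 0.08, adjusted p = 1.19e-13). *Klhl13*, an X-linked adaptor of a CUL3 ligase, had 121.8 and 98.4 against 10.8 and 11.3 CPM (3.19), and *Gm18336*, also on the X chromosome, 38 and 39.5 against 3.87 and 3.43 CPM (3.10). *Ephx2*, the soluble epoxide hydrolase on chromosome 14, had 104.2 and 94.8 against 13 and 15.2 CPM, and *Serpinf1*, which encodes the secreted factor PEDF on chromosome 11, 39.2 and 41.7 against 6.47 and 6.49 CPM. Their log2 fold changes were 2.74 and 2.47. *P2rx3*, an ATP-gated ion channel on chromosome 2, had 29.1 and 29.5 against 4.82 and 5.59 CPM (2.29).

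In 2 of the leading genes, the WT line was not above parental ESCs. *Arl14epl* on chromosome 18 had 88.4 and 79.9 CPM in the WT line, 11.5 and 15 CPM in the ΔN line and 98.3 and 92.3 CPM in parental ESCs. *Ddr2*, a collagen receptor kinase on chromosome 1, had 61.3 and 57.2, 11.5 and 10.4 and 72.4 and 68.5 CPM in the same order. In both, the ΔN libraries were the low ones, and the log2 fold changes of WT over ΔN were 2.59 and 2.33 with adjusted p of 2.91e-11 and 3.65e-11 from limma.

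**Figure D3:**
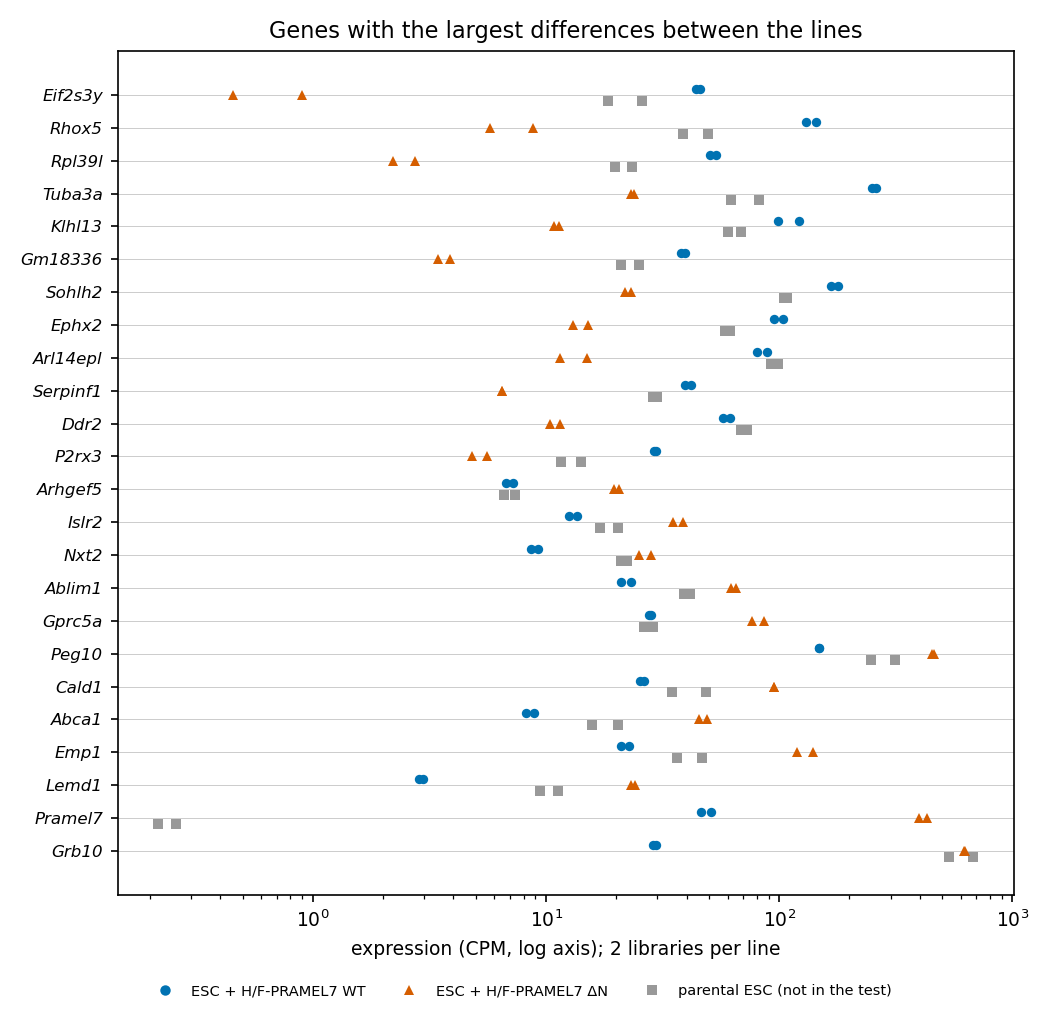
Expression (CPM, log axis) of the 12 higher and 12 lower genes with the largest log2 fold changes among called genes with a mean of at least 10 CPM and non-overlapping libraries, with 1 point per library for ESC + H/F-PRAMEL7 WT (circles), ESC + H/F-PRAMEL7 ΔN (triangles) and parental ESCs (squares). The distance between the WT and ΔN lines follows from this choice of genes. *Grb10* is low in the WT line alone (29.7 and 28.7 CPM).

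*Grb10*, an imprinted gene for an adaptor that dampens insulin and IGF receptor signaling, had the largest difference in favour of the ΔN line. It had 29.7 and 28.7 CPM in the WT line against 620.5 and 627.4 CPM in the ΔN line, with 678.7 and 532.0 CPM in parental ESCs. The ΔN libraries lay within the range of the parental ones, and the ΔN mean was 21.4-fold that of the WT line, with a log2 fold change of -4.37 (standard error 0.07, adjusted p = 3.67e-17). Unlike chromosome 6, its chromosome 11 had a median near 0, -0.041 over 1054 genes.

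Of the other 11 leading genes that were lower in the WT line, *Pramel7* is the inserted gene and 5 lie on chromosome 6. *Emp1*, an epithelial membrane protein gene there, had 22.6 and 21 against 118.8 and 139.6 CPM, a log2 fold change of -2.51 (adjusted p = 3.27e-12), and *Cald1*, which encodes the actin-binding caldesmon, 26.3 and 25.3 against 95 and 94.6 CPM (-1.84). *Peg10*, a paternally expressed gene needed for the placenta, had 148.5 and 148.1 against 453.0 and 461.8 CPM (-1.62). The orphan receptor gene *Gprc5a* had -1.51 and the guanine nucleotide exchange factor gene *Arhgef5* -1.41. These differences stood beside a median of -0.49 for the genes of chromosome 6 outside 80 to 100 Mb, where all 5 lie. For *Gprc5a* and *Arhgef5* the parental libraries, with 26.3 and 28.7 and 7.33 and 6.62 CPM, were close to the WT line.

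On other chromosomes, *Abca1*, the cholesterol exporter on chromosome 4, had 8.91 and 8.2 against 48.9 and 45.3 CPM, a log2 fold change of -2.33 (adjusted p = 7.27e-11). *Lemd1* on chromosome 1, a cancer-testis gene, had 2.83 and 2.97 against 24 and 23.2 CPM (-2.66). *Ablim1*, an actin-binding LIM protein gene on chromosome 19, had 20.9 and 23.1 against 65.1 and 62.3 CPM (-1.49). For *Abca1*, *Lemd1* and *Ablim1* the parental libraries lay between the lines, with 20.3 and 15.7, 11.2 and 9.44 and 38.9 and 41.4 CPM. *Nxt2* on the X chromosome, a cofactor of RNA export, and *Islr2* on chromosome 9 had log2 fold changes of -1.48 and -1.42.

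Called genes of the naive pluripotency list lay on both sides. Of 21 tested, 2 were higher and 3 lower in the WT line, and the median log2 fold change was -0.17, with 15 of 21 below 0. Their summed values were 6567.5 to 6833.3 CPM in the WT line and 8046 to 8126.7 CPM in the ΔN line. *Klf2*, a Krüppel-like factor of the naive network, had 155.8 and 181.6 CPM in the WT line and 68 and 61 CPM in the ΔN line, a log2 fold change of 1.37 (standard error 0.09, adjusted p = 3.82e-09). *Klf4*, its relative in the same network, went the other way, with 182.3 and 202.1 against 354.1 and 364.3 CPM (-0.90, standard error 0.07, adjusted p = 9.98e-08). The parental libraries, with 148.2 and 182.4 CPM for *Klf2* and 253.2 and 362.3 CPM for *Klf4*, overlapped the WT line for *Klf2* and reached the ΔN line for *Klf4*.

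*Nr0b1*, an X-linked nuclear receptor gene that is active in ESCs, had 0.78, and *Gbx2*, a LIF-induced homeobox gene, -0.78 with 12.8 and 15.2 against 23.3 and 26 CPM. *Tet2*, an oxidase of 5-methylcytosine, had 84.9 and 97.6 against 188.6 and 176.6 CPM (-0.996, adjusted p = 9.61e-08). *Nanog*, on chromosome 6, had 453.8 and 454.3 against 631.3 and 691.9 CPM, and its log2 fold change of -0.54 (adjusted p = 2.49e-05) was just inside the limit on the fold change and close to the median of the shifted part of its chromosome. Among 13 genes of the core pluripotency list, 1 was higher, *Tcf3* on chromosome 10 (0.64). In the same list 0 were lower (4 with an unadjusted p under 0.05 at any fold), and the median was 0.07. This *Tcf3* encodes E2A and was in the list by its symbol, so its call is not read as that of a core pluripotency factor. *Tcf3* fell inside the limit on the fold change with the loess correction for GC content and length (0.43) and without WT library 2 (0.52) or ΔN library 2 (0.55).

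Of 20 tested genes of the formative and primed epiblast, 8 were higher, 1 was lower and 11 were not called. Values were above 0 in 12 and below 0 in 8, and the median log2 fold change was 0.34 against -0.02 over all tested genes. The Nodal antagonists *Lefty2* and *Lefty1*, neighbours on chromosome 1, had 287.4 and 301.0 and 73.9 and 86.2 CPM in the WT line against 82 and 84.4 and 29.1 and 24.6 CPM in the ΔN line. Their log2 fold changes were 1.81 and 1.54 (adjusted p = 9.00e-12 and 6.29e-09). *Otx2*, a homeobox factor of the transition to the formative state, had 61.9 and 63.4 against 24 and 21.2 CPM (1.43, standard error 0.10, adjusted p = 6.81e-09).

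The de novo DNA methyltransferase genes *Dnmt3a* and *Dnmt3b* were higher as well. *Dnmt3a* had 88.4 and 85.5 against 32.2 and 31.8 CPM (1.41), and *Dnmt3b* 259.6 and 250.4 against 117.3 and 109.0 CPM (1.17). For *Dnmt3a* the parental 95.9 and 86.8 CPM were close to the WT line, and for *Dnmt3b* the parental 151.7 and 123.7 CPM lay nearer to the ΔN line. *Krt18*, a keratin gene, was the member that was lower, with 10 and 10.4 against 22.7 and 24.2 CPM (-1.12). *Zic2*, *Zic5* and the X-linked *Pim2* were the other higher members. Since their mean was below 10 CPM or their rank below the fourth, they are named after their values were seen. *Pou3f1* (0.25), *Etv5* (-0.03), *Etv4* (-0.16) and the X-linked *Sox3* (-0.24), chosen after their values were seen, were not called. *Fgf5*, another gene of the list, was not tested and had 0 CPM in every library of both lines.

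**Figure D4:**
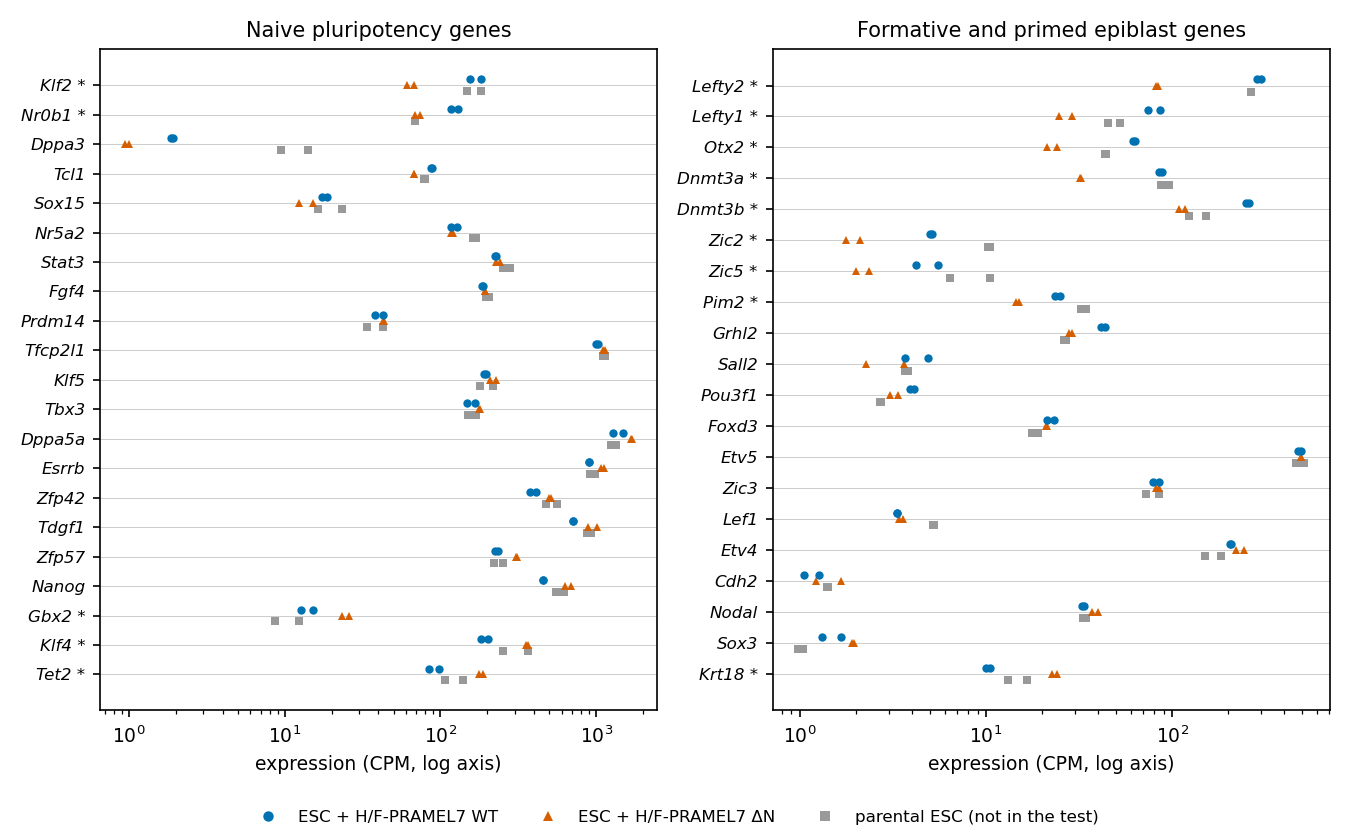
Expression (CPM, log axis) of the 21 tested naive pluripotency genes (left) and the 20 tested formative and primed epiblast genes (right), ordered by log2 fold change of WT over ΔN, with 1 point per library and an asterisk on called genes. Called genes lie on both sides among the naive genes (2 higher, 3 lower) and mostly on the side of the WT line among the formative and primed genes (8 higher, 1 lower).

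Among 21 tested genes of the Nodal and TGF-beta pathway, 3 were higher and 2 lower, with a median of -0.19. Besides the *Lefty* genes, *Smad3*, a transducer of Nodal signals, had 34.9 and 34.9 against 14.9 and 12.7 CPM (1.28, adjusted p = 2.06e-07). The ligand gene *Nodal* had a log2 fold change of -0.20 (adjusted p = 0.106), whereas *Smad7*, an inhibitory SMAD, was lower in the WT line (-0.71), with 76.9 and 81.5 against 136.9 and 123.0 CPM. *Tgif2*, a corepressor of SMADs, had 0.55 (adjusted p = 0.0153), inside the limit on the fold change. Of 15 BMP and Id genes, 3 were higher and 1 lower, with a median of 0.14. The ligand gene *Bmp4* had 35.1 and 41.8 against 71.3 and 59.9 CPM (-0.76), whereas *Id3*, a BMP target, had 22.2 and 23.4 against 12.8 and 13 CPM (0.77).

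In the WNT pathway, 5 of 25 tested genes were higher and 1 was lower, and the median was 0.14. The receptor gene *Fzd7* had 105.2 and 109.9 CPM in the WT line, 33 and 31.6 CPM in the ΔN line and 55.4 and 65 CPM in parental ESCs, which thus lay between the lines. Its log2 fold change was 1.70 (standard error 0.08, adjusted p = 9.71e-11). The other higher genes were *Fzd2*, *Fzd4*, *Fzd8* and the ligand gene *Wnt7b*, named after their values were seen because their mean was below 10 CPM. The coreceptor gene *Lrp6*, on chromosome 6, was the lower one (-0.81).

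For FGF and ERK signaling, 4 of 27 genes were higher and 2 lower, with a median of -0.03. *Spry4*, a feedback inhibitor, had 126.1 and 131.7 against 250.8 and 233.9 CPM (-0.91), and *Myc* had 43.6 and 42.4 against 76.3 and 73.1 CPM (-0.78). The kinase gene *Map2k2* (0.67) and the phosphatase gene *Dusp14* (0.64) were higher. The other higher genes were *Dusp4* (1.23) and *Fgfr2* (0.92), named after their values were seen because their mean was below 10 CPM. Of 19 genes of the LIF, JAK and STAT3 pathway, 4 were higher and 0 lower (2 with an unadjusted p under 0.05 at any fold), with a median of 0.0039. These were *Junb* (0.86), *Jak3* (0.70), *Stat5b* (0.65) and *Bcl3* (0.59), and *Stat3* itself had -0.04 (95% interval -0.19 to 0.11). *Bcl3* fell inside the limit on the fold change with loess (0.32), a pseudocount of 5 (0.55) and without WT library 1 (0.55) or ΔN library 2 (0.53). So did *Map2k2* with loess (0.47) and without WT library 2 (0.55) or ΔN library 2 (0.54), *Jak3* with loess (0.50), and *Stat5b* and *Dusp14* with a pseudocount of 5 (0.53 and 0.48). In insulin and IGF signaling, 1 of 22 genes was higher, *Akt1* (0.60), and 2 were lower, *Grb10* and the receptor gene *Igf1r* (-0.66). *Akt1* was inside the limit with loess (0.42), a pseudocount of 5 (0.57) and without WT library 2 (0.57) or ΔN library 2 (0.56). Among 22 RAP1 and RAS regulators, 1 was higher and 4 lower. The GTPase-activating protein genes *Rap1gap* and *Rap1gap2* went opposite ways, with log2 fold changes of 0.93 and -1.002.

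Transcripts of the NuRD complex, a chromatin remodeler with histone deacetylases, passed the limits in 1 case. Of 15 tested genes 1 was higher, *Mta1*, with 140.2 and 153.2 against 98.7 and 85 CPM (0.67, adjusted p = 1.16e-05), and 0 were lower, with a median of -0.01. *Mta1* itself fell inside the limit on the fold change with loess (0.55) and without ΔN library 2 (0.57). Inside the limit on the fold change but with an adjusted p under 0.05 were *Mbd3* (0.55), *Cdk2ap1* (0.42) and *Mta3* (0.41) on the higher side and *Chd3* (-0.36), *Gatad2b* (-0.36) and *Chd4* (-0.23) on the lower side, which are the 3 with an unadjusted p under 0.05 there. Of these, *Cdk2ap1*, *Chd3* and *Gatad2b* were named after their values were seen. *Chd4*, the remodeling ATPase, lies on chromosome 6 (adjusted p = 0.0265). *Chd4* had 1012.7 and 953.0 against 1174.1 and 1126.5 CPM. *Hdac1* (0.09, 95% interval -0.05 to 0.24), *Mta2* (0.05, -0.10 to 0.20) and the X-linked *Rbbp7* (-0.05, -0.21 to 0.11) did not pass. Among 22 genes of HDAC corepressors, a list that shares *Hdac1* and *Hdac2* with the NuRD list, 3 were higher and 0 lower (2 with an unadjusted p under 0.05 at any fold), with a median of 0.09. *Rcor2*, a CoREST subunit gene, had 230.7 and 241.0 against 121.2 and 115.8 CPM (0.99).

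Of 17 DNA methylation and demethylation genes, 3 were higher and 3 lower, with a median of -0.0045. The third higher gene was *Tet3* on chromosome 6, named after its values were seen (0.62). Beside these stood *Tet1* and *Tet2*, which were lower, *Tet1* with 156.2 and 143.7 against 227.0 and 232.8 CPM (-0.61, adjusted p = 6.88e-06). *Tet1* was inside the limit on the fold change with loess (-0.45) and without WT library 2 (-0.55). The glycosylase gene *Mbd4*, on chromosome 6, was also lower (-1.09). *Uhrf1*, the maintenance factor that recognises hemimethylated DNA, had 708.9 and 716.4 against 721.1 and 708.6 CPM, a log2 fold change of -0.00 with a 95% interval of -0.15 to 0.15. *Dnmt1* had 496.2 and 486.2 against 487.8 and 459.9 CPM (0.05, interval -0.10 to 0.20). For both maintenance genes the libraries of the lines overlapped, and neither passed the test.

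Among 18 genes of HP1 and H3K9 methylation, 0 were higher (4 with an unadjusted p under 0.05 at any fold) and 3 lower, with a median of -0.02. *Suv39h1*, an X-linked H3K9 methyltransferase gene, had 10.8 and 9.86 against 28.3 and 25.8 CPM (-1.30, adjusted p = 3.13e-07). The HP1 genes *Cbx5*, on chromosome 15, and *Cbx3*, on chromosome 6, had -0.61 and -0.65. *Cbx5* had 238.6 and 233.3 against 343.7 and 379.6 CPM, and parental ESCs had 278.5 and 212.6 CPM. With loess, *Cbx5* (-0.44) and *Cbx3* (-0.48) were inside the limit on the fold change, as was *Cbx5* without ΔN library 2 (-0.54). Of 32 Polycomb genes, 2 were higher, *Scml2* on the X chromosome (1.23) and *Scmh1* (0.59), and 1 was lower, *Ezh2* on chromosome 6 (-0.63), with a median of -0.08. *Scml2*, named after its values were seen, had 7.14 and 7.05 against 2.76 and 2.16 CPM. Both lines were below the parental 45.19 and 51.25 CPM. *Ezh2* was inside the limit with loess (-0.53) and without ΔN library 2 (-0.54), and *Scmh1* with a pseudocount of 5 (0.46) and without WT library 1 (0.47) or ΔN library 1 (0.56). Of 20 genes of the CUL2 ligase and its substrate receptors, 0 were higher (2 with an unadjusted p under 0.05 at any fold) and 2 lower, *Pramel7* and, on chromosome 6, *Vhl* (-0.67). *Cul2* had 90.5 and 90.7 against 93.6 and 109.8 CPM (-0.16, 95% interval -0.34 to 0.02). The *Pramel* family had 4 tested genes, of which 3 were lower, the inserted *Pramel7* among them, with *Pramef8* at -0.75, from 13.6 and 12.4 against 21.4 and 23.7 CPM.

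Germline genes whose promoters are known to be methylated in somatic cells had the highest median of the lists apart from Y-linked genes. Like the other lists, this one was chosen with earlier results of these data known, so its rank is a description only. Of 48 genes, 44 were detected and 31 tested, of which 16 were higher and 2 lower, and the median log2 fold change was 0.58. Summed over the 31 tested genes, the libraries of the WT line had 1307.1 and 1308 CPM against 913.4 and 927.8 CPM in the ΔN line, and those of parental ESCs 1299.9 and 1304.3 CPM. *Tuba3a* and *Sohlh2* had the largest differences in CPM within this sum, and *Zfp42* had the largest one in the other direction. Besides *Tuba3a* and *Sohlh2*, *Rpl10l*, a testis copy of a ribosomal protein gene, had 76.3 and 82 against 21.2 and 23.2 CPM (1.79, adjusted p = 2.27e-10), and *Mael*, a factor of the piRNA pathway, 21.2 and 23.2 against 10 and 11.7 CPM (0.97). *Tex15*, a meiotic gene, was lower (-0.78), but inside the limit on the fold change with loess (-0.52) and a pseudocount of 5 (-0.57). Of the 16 higher genes, 14 lay outside chromosomes 6, Y and M, and 4 of these on the X chromosome. The germline genes *Ddx4* (-0.56), *Piwil2* (-0.20) and *Tex19.1* (0.11), chosen after their values were seen, were not called.

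Imprinted genes differed in both directions. Of 15 tested maternally expressed genes 0 were higher (1 with an unadjusted p under 0.05 at any fold) and 2 lower, *Grb10* and *Slc22a18*, the latter named after its values were seen, and the median was -0.13. Among 21 paternally expressed genes, 4 were higher and 3 lower, with a median of 0.11. The 3 lower genes, *Peg10*, *Mest* (-0.96) and *Sgce*, lie on chromosome 6. *Mest* had 34.5 and 36.1 against 70 and 69.3 CPM. Among the higher ones, *Impact* had 278.2 and 297.5 against 134.5 and 142.1 CPM (1.05) and *Gab1* 423.5 and 406.1 against 274.6 and 276.9 CPM (0.59). *Gab1* was inside the limit on the fold change with loess (0.57), quantile normalization (0.57) and without WT library 1 (0.56). *Plagl1*, a zinc finger gene of growth control that was named after its values were seen, had 78 and 56 reads in the WT line, 0 reads in both libraries of the ΔN line and 19 and 23 reads in parental ESCs. It was at least 45.8-fold higher in the WT line with a floor of 3 reads over the ΔN line. *Nnat*, also named after its values were seen, had 8.96 and 9.25 against 0.854 and 1.11 CPM (2.35), and parental ESCs had 1.7 and 2.22 CPM.

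**Figure D5:**
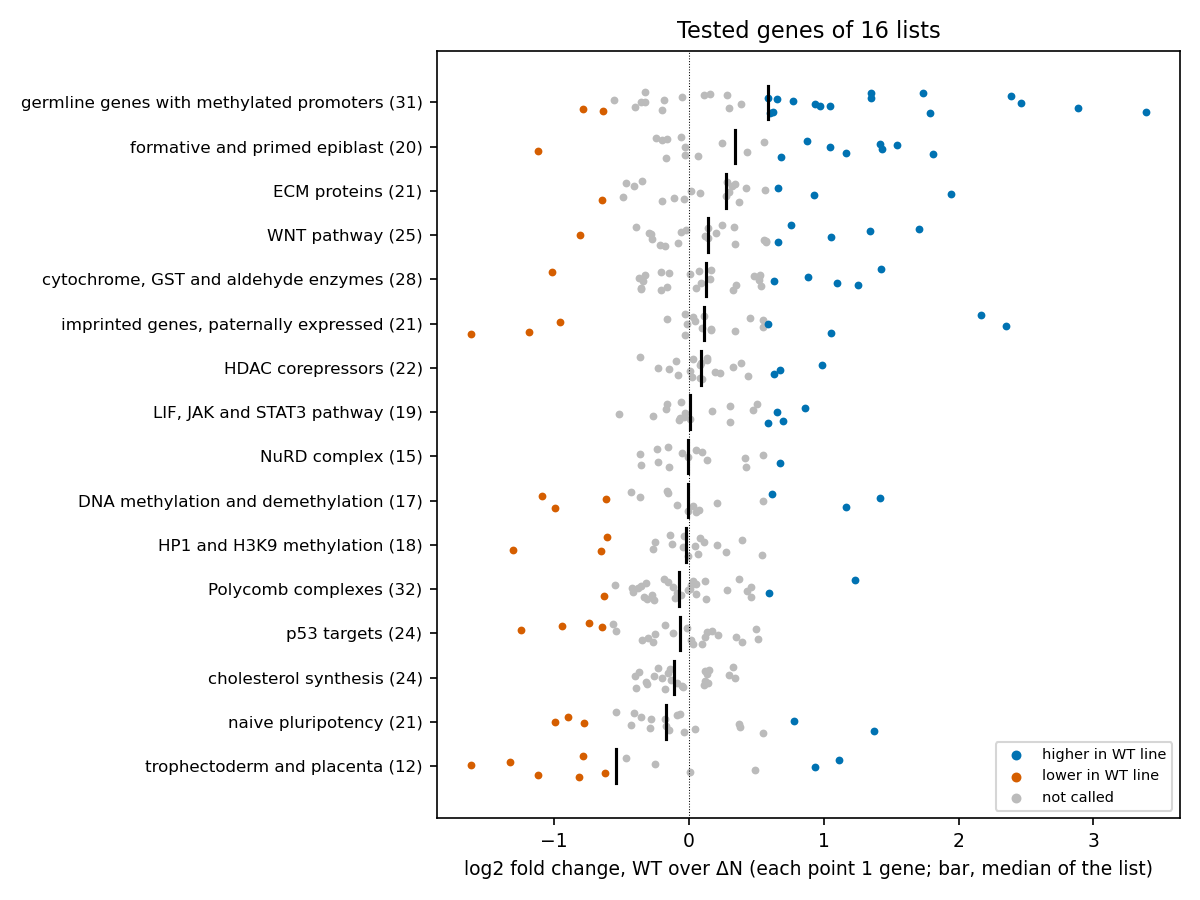
Log2 fold change of WT over ΔN (horizontal axis) for the tested genes of 16 gene lists, each point 1 gene and each bar the median of its list, with the number of tested genes in brackets. Germline genes extend furthest to the right, with a median of 0.58 and 16 of 31 higher, and trophectoderm and placenta genes have the lowest median, -0.55. The lists were chosen with earlier results of these data known, so their order is a description only.

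By their medians, promoters of the called genes held fewer CG dinucleotides, the sites of DNA methylation, than those of all tested genes, but not at every level of expression. In windows from 250 bases before to 50 bases after the 5′ end of each gene in GENCODE, read on GRCm38, the median number of CG was 19 over 12536 tested genes, 12 in the higher genes and 16 in the lower genes. Fewer than 8 CG were found in 32.233% of the higher, 27.086% of the lower and 18.443% of all tested genes. The annotated 5′ end need not be the start in use, so a window can miss the active promoter. For example, the window of *Tet1* held 0 CG and those of *Dnmt1*, *Dnmt3a* and *Sall4* held 2 each, although all were expressed. Which start was in use was not tested. When tested genes were divided into 4 groups of equal size by mean CPM, the medians from the lowest to the highest group were 10, 13.5, 17 and 16 in higher genes, 11, 16, 21 and 21.5 in lower genes and 13, 19, 20 and 22 in uncalled genes. The lower genes were thus above the uncalled ones in the next to highest group, and in the highest group the shares under 8 CG were 10.204% in lower and 10.501% in uncalled genes. The lower genes of chromosome 6 had a median of 20, close to that of all genes. Both strands count alike for CG, and adjacent CG do not overlap. To show promoters of leading genes over a range of CG counts, the RefSeq windows of the same length are given for the germline genes *Tuba3a* (12 CG, against 15 in its GENCODE window, chr6:125286032-125286331, minus strand) and *Sohlh2* (17 CG, chr3:55181794-55182093, plus strand), which were higher, and for *Emp1* (5 CG, chr6:135362681-135362980, plus strand), which was lower, on GRCm38.p6 with each CG in capitals.
Tuba3a: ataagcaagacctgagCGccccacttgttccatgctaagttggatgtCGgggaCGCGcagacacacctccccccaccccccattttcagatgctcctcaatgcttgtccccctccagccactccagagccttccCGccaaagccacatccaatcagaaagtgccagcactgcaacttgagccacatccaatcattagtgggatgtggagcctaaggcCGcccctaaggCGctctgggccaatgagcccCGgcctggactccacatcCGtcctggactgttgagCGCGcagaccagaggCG
Sohlh2: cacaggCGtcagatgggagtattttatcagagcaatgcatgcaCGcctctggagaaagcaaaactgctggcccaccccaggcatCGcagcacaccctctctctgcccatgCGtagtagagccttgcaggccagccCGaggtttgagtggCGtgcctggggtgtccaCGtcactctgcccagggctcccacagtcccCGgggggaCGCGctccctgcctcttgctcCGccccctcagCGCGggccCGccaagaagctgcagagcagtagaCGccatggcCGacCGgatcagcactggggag
Emp1: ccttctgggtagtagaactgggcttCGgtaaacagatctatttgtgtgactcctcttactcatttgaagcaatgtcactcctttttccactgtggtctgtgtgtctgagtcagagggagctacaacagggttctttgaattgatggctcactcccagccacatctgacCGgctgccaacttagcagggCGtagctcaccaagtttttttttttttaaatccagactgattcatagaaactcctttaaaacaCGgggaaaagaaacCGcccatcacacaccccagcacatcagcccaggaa

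Markers of the trophectoderm and placenta were the list with the lowest median among those with at least 10 tested genes, -0.55, with 2 of 12 higher and 6 lower. Summed over the 20 genes in the table, the libraries of the WT line had 275.6 to 282.7 CPM and those of the ΔN line 595 to 601.1 CPM, most of it *Peg10* on chromosome 6. The keratin genes *Krt19* on chromosome 11 (10.8 and 12 against 33.6 and 26.8 CPM, -1.32) and *Krt8* on chromosome 15 (16.8 and 15.2 against 27.5 and 29 CPM, -0.79) were lower with *Krt18*, whereas *Tfap2c*, a trophectoderm and germ cell factor, was higher with 66.1 and 69 against 30.4 and 30.9 CPM (1.11). *Cdx2*, *Elf5* and *Gata3*, which define this lineage, had at most 0.211 CPM in any of the 4 libraries, and *Tpbpa* and *Prl3d1* were at 0 in all 4. In bulk RNA, fewer cells of a type and less RNA per cell cannot be told apart.

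Markers of other lineages ranged from 0 to clear expression, and several were named after their values were seen. *Gata6* and *Sox17* of the primitive endoderm had at most 0.356 CPM, whereas *Gata4* had 2.38 and 2.26 against 2.66 and 2.38 CPM, *Sox7* 6.38 and 6.17 against 5.67 and 4.54 CPM and *Hnf4a*, below the filter, 1.21 and 0.771 against 0 and 0.0528 CPM. Of 10 tested genes of that list 0 were called in either direction (3 higher and 4 lower with an unadjusted p under 0.05 at any fold). Its summed values overlapped, 1731.3 to 1760 CPM in the WT line against 1660.3 to 1740.3 CPM in the ΔN line. Of 17 primitive streak genes 3 were tested and 1 was lower, *Eomes*, with 4.46 and 5.95 against 9.13 and 10.6 CPM (-0.82), and *T* had at most 0.0551 CPM. Among 2-cell-like genes 7 of 13 were at 0 in all 4 libraries, and the 1 tested gene was not called. Of 8 tested neural genes 2 were higher, the tubulin gene *Tubb3* (261.8 and 264.5 against 183.4 and 158.4 CPM, 0.62) and *Stmn2* (389.5 and 406.1 against 235.8 and 238.2 CPM, 0.74), while *Nes* had 14 and 14 against 15.2 and 14.9 CPM without passing and *Neurog2* and *Dcx* were at 0. *Tubb3* was inside the limit on the fold change with loess (0.47) and without ΔN library 2 (0.52). Fibroblast and feeder cell genes had 1 higher and 3 lower among 5 tested, and *Dcn*, *Lum* and *Postn* were at 0. The higher gene was *Vim*, the intermediate filament vimentin on chromosome 2, with 144.5 and 151.8 CPM in the WT line, 36.8 and 37.5 CPM in the ΔN line and 111.4 and 102.7 CPM in parental ESCs (1.97, adjusted p = 9.13e-12). *Thy1* was lower (-0.89). Of 28 *Hox* genes 2 were tested and lower, 1 of them on chromosome 6, and the sum over all 28 was 3.3 to 4.4 CPM in the WT line and 10.1 to 10.7 CPM in the ΔN line.

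Extracellular matrix genes had a median of 0.27, with 3 of 21 higher and 1 lower. *Spp1*, the secreted integrin ligand osteopontin, had 179.2 and 187.6 CPM in the WT line against 42.8 and 51.2 CPM in the ΔN line, a log2 fold change of 1.95 (adjusted p = 3.96e-11), and parental ESCs had 163.0 and 158.0 CPM, nearer to the WT line. *Fbln1*, a fibulin gene, had 0.92 and *Col18a1* 0.66, the latter with 419.6 and 458.3 against 279.7 and 274.6 CPM, though inside the limit on the fold change with loess (0.46). Of 20 integrins and matrix receptors, 2 were higher and 3 lower. The X-linked glypican gene *Gpc3* had 66.9 and 65.7 against 24.8 and 23.6 CPM (1.42), *Itgb5* 1.04 and *Itga6* -0.61. *Itga6* was inside the limit with loess (-0.57) and without WT library 2 (-0.58).

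Actin cytoskeleton genes and SRF targets had 2 higher and 2 lower among 21. *Lima1* had 147.6 and 142.5 against 80.8 and 81.7 CPM (0.83), and both lines were below the parental 196.5 and 261.4 CPM. The filamin gene *Flnc*, on chromosome 6, had 34.2 and 37.5 against 76.6 and 73.7 CPM (-1.05). Of 25 epithelial and mesenchymal genes, 4 were higher and 5 lower, with a median of -0.01. Apart from *Vim*, the splicing regulator gene *Esrp1* (0.76) and the claudin gene *Cldn4* (0.62) were higher, and the matrix protease gene *Mmp14* was lower with 20.9 and 21.6 against 43.5 and 43 CPM (-0.99). *Cldn4* was inside the limit on the fold change with loess (0.48) and without WT library 2 (0.58) or ΔN library 2 (0.54).

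Among 28 genes of cytochromes, glutathione S-transferases and aldehyde dehydrogenases, 5 were higher and 1 was lower, with a median of 0.12. All 5 higher genes encode glutathione S-transferases, enzymes that conjugate electrophiles to glutathione. *Gstp2* had 117.0 and 106.2 against 43.5 and 38.5 CPM (1.42), *Gstp1* 95.8 and 85.4 against 42 and 41.3 CPM (1.10) and *Gstm2* 18.1 and 18.3 against 7.28 and 6.81 CPM (1.26). *Gstp1* and *Gstp2* are neighbouring, similar genes that could share reads. In glycolysis, 1 of 23 genes was higher and 3 were lower, with a median of -0.18. *Slc2a3*, a glucose transporter gene on chromosome 6, had 1026.0 and 985.5 against 1825.4 and 1768.4 CPM (-0.84), *Pfkp* on chromosome 13 had -0.60 (-0.53 with loess, inside the limit) and *Eno3* 0.81. The third lower gene was *Eno2* on chromosome 6, named after its values were seen (-1.66). The 17 glycolysis genes outside chromosomes 6, Y and M had a median of 0.0992, on the other side of 0.

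Cholesterol synthesis had 24 tested genes, of which 0 were called in either direction (2 higher and 9 lower with an unadjusted p under 0.05 at any fold), with a median of -0.11. Among 23 genes of the ATF4 and amino acid response, 2 were higher, the arginine transporter gene *Slc7a3* on the X chromosome (522.8 and 521.1 against 299.5 and 309.9 CPM, 0.77) and *Atf5* (0.90), and 1 was lower, *Atf3* (-0.70). *Slc7a3* lies between 90 and 120 Mb of its chromosome, where the median of 87 genes was 0.54. Of 24 p53 targets, 0 were higher (6 with an unadjusted p under 0.05 at any fold) and 4 lower, with a median of -0.07, and *Btg2*, an antiproliferative gene, had 64.4 and 64.8 against 125.9 and 124.8 CPM (-0.95). *Trp53inp1* (-0.74) and *Perp* (-0.64) were lower as well, but *Trp53inp1* was inside the limit on the fold change with loess (-0.53) and *Perp* with a pseudocount of 5 (-0.58) and without ΔN library 2 (-0.54).

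Cyclins, cell-cycle kinases and inhibitors had 2 higher and 1 lower among 26. *Ccnd1*, cyclin D1, had 148.4 and 142.9 against 80.2 and 78.8 CPM (0.86). The inhibitor gene *Cdkn2a* was higher (1.02) and the inhibitor gene *Cdkn1b*, on chromosome 6, lower (-0.93). Of 19 heat shock and chaperone genes 1 was higher, *Bag3* (1.02), and 1 lower, *Pdia4* on chromosome 6 (-0.63). Interferon response genes had 3 higher and 0 lower among 16 (4 lower with an unadjusted p under 0.05 at any fold). *Ifitm1* and *Ifitm3*, neighbours on chromosome 7 that encode membrane proteins against virus entry, had 224.8 and 243.7 and 51.2 and 51.5 CPM in the WT line against 80.9 and 78.7 and 22.1 and 20.8 CPM in the ΔN line (1.54 and 1.22), and the RNA sensor gene *Ddx58* had 0.69. The inducible genes *Ifit1*, *Ifit3* and *Isg15* had at most 0.251 CPM. Of 7 tested mitochondrially encoded genes 1 was lower, *mt-Nd6* (-0.62, adjusted p = 0.00208), whose ΔN libraries differed, with 277.3 and 446.9 CPM. Without ΔN library 2 its log2 fold change was -0.27 and with loess -0.53, both inside the limit.

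The study names a small set of further genes that were tested here. *Esrra*, a nuclear receptor gene, had 22.4 and 22.2 against 15.6 and 14.7 CPM (0.53, adjusted p = 0.00139), inside the limit on the fold change, and *Bcl3* had 66.5 and 63.1 against 44.7 and 40.9 CPM, just outside it (0.59, adjusted p = 6.27e-05), with 0.32 under loess. For *Bcl3*, *Esrra* and *Tgif2* the libraries of the WT line were the higher ones, and for *Bcl3* the parental libraries had 30.5 and 47.6 CPM.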

How the data were processed

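RNA-seq of polyadenylated RNA was analysed in 4 libraries, 2 of each derived line. The authors removed ribosomal reads, trimmed, mapped to mm10 with STAR and computed exon coverage. GEO's processing notes list Bowtie2 2.3.4.3 and Subread 1.4.6-p4 for the samples. The authors deposited RPKM values per gene. The length used in them was the whole gene span, and RPKM multiplied by the span in GENCODE vM21 gave whole reads within 0.1 for 98.1 to 98.3% of values up to 20 reads in these libraries. Values were therefore multiplied by the span and by 1 constant for all libraries, which gives CPM and keeps the authors' scaling. Of 50978 genes, 176 with repeated or date-like names, 2723 without and 72 with several matches were left out, and with them 592 of 19679 members. The deposited tables of the authors' own comparisons (fold changes and p-values against parental ESCs) were not used.

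Genes above 1 CPM in at least 2 of the 4 libraries were tested on log2(CPM + 1) with limma 3.58.1 (R 4.3.3), a trend of variance on mean, no covariates and Benjamini-Hochberg adjustment. A pseudocount of 1 understates changes of low genes. Counts were also simulated for these 12546 genes, with 200 changed genes drawn only from those with a mean above 200 reads. All genes were given the same dispersion. There, 100% of log2 changes of 1 and of 2 were recovered and 3 unchanged genes were called. The recovery of changes in lower genes, or with a dispersion that differs between genes, was not tested. Named genes were *Pramel7*, per direction the 12 with the largest change among called genes with a mean of at least 10 CPM and non-overlapping libraries, up to 4 called genes per direction of each list at that level, genes the paper names and defining ESC markers. Others are said in the text to be chosen after their values were seen. Some genes that met this rule are not reported here. Members and lists were chosen with earlier results of these data known. Lists were described by counts and medians, without a test. Alternatives were pseudocounts of 0.1 and 5, no filter, 10 CPM, a replicate block, all 6 libraries, quantile, upper-quartile and median-ratio scaling, no trend, RPKM unconverted, voom on whole reads, a loess correction for GC content and length, other limits and leaving out libraries. Summaries used python 3.11.15 with numpy 2.4.6, pandas 2.3.3 and matplotlib 3.10.9. Floors of 3 reads cover counting error only.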

Additional observations from a re-analysis of the deposited data

How the results depend on the processing

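Counts of higher and lower genes (909 and 684) stayed within 1.5 times under most settings and moved with a pseudocount of 5 (436 and 306), a filter of 10 CPM (463 and 362), RPKM without conversion (49 and 13), no limit on the fold change (2303 and 2313) and a limit of 1 (276 and 111). With unadjusted p they were 917 and 685, without chromosomes 6, M and Y 877 and 495, and, in a setting chosen after seeing the data, also without 90 to 120 Mb of the X chromosome 840 and 495. Leaving out each library gave 871 to 1079 higher and 650 to 879 lower genes, where a lone library was assumed to vary like the others. Of called genes, 57.1% were higher in the main setting, 79% in RPKM, 71.3% at a limit of 1 and 49.9% without a limit. Voom on whole reads gave 1050 and 856 and the replicate block 918 and 685. Numbers are shared by the labels alone, and the deviations of same-numbered libraries had a correlation of -0.0909. With 2 libraries per line, this value cannot tell whether the dishes were paired.

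The median of chromosome 6 (-0.40) was -0.43 with a pseudocount of 0.1, -0.30 with 5, -0.14 without a filter, -0.48 at 10 CPM, -0.39 with median-ratio scaling, -0.28 in RPKM, -0.44 with voom, -0.38 with loess and -0.41 to -0.40 with a library left out. Its lower genes numbered 4 in RPKM, 339 without and 33 with a limit of 1 on the fold change (188 in the main setting). Median CG of higher and lower genes was 13.5 and 19 with a pseudocount of 5, 16 and 20 at 10 CPM, and 17 and 20 without a fold limit. It was 9 for higher genes at a limit of 1 and, for lower genes, 18 in RPKM and 14 without chromosomes 6, M and Y, the latter also without the X segment. Genes near 0 changed sign. With loess, *Pou5f1* had -0.047, *Dnmt1* -0.0025, *Cul2* 0.0057 and *Rbbp7* 0.032, and with median-ratio scaling *Uhrf1* had 0.011. With a library left out, *Sox2* ranged from -0.044 to 0.24, *Uhrf1* from -0.017 to 0.0081, *Cul2* from -0.28 to -0.047, with an adjusted p under 0.05 without ΔN library 1, *Rbbp7* from -0.13 to 0.031 and *Stat3* from -0.083 to 0.0013. Of 117 called named genes, *mt-Nd6* alone lost its adjusted p under 0.05, in 4 settings, and none of the others did under 17 settings. By the limit on the fold change, 37 of the 117 fell inside it in at least 1 setting, 21 with loess, 16 in RPKM, 7 with a pseudocount of 5, 1 with quantile normalization and between 1 and 12 with a library left out, the 12 without ΔN library 2. The notes on single genes above leave out RPKM. Higher genes inside the limit there were *Tfap2c*, *Impact*, *Atf5*, *Ccnd1*, *Id3*, *Stmn2*, *Tubb3* and *Cldn4*. Lower ones were *Pfkp*, *Cbx5*, *Pdia4*, *Bmp4*, *Gbx2*, *Myc*, *Thy1* and *Cdkn1b*. A pseudocount of 5 lowered *Eif2s3y* to 3.13, *Nnat* to 1.24, *Plagl1* to 0.77 and *Scml2* to 0.70, as adding more to low values does. Of 82 list counts, 169 values in other settings moved by over 1.5 times and 1225 did not. *Pramel7* kept its direction and call in all. The causes of these changes were not tested. Depth limits the 6541 members below the filter, of which 51 passed as higher and 14 as lower without it.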

Other observations

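The *Rhox* homeobox cluster on the X chromosome and the *Platr* long noncoding RNAs of pluripotent cells were looked at after their values had been seen, so their counts are a description without a test. Of 6 tested *Rhox* genes 5 were higher in ESC + H/F-PRAMEL7 WT. Apart from *Rhox5*, *Rhox1* had 6.02 and 6.11 CPM in the WT line against 0.502 and 0.528 CPM in the ΔN line, a log2 fold change of 2.22, and *Rhox9* had 5.67 and 5.62 against 1.05 and 0.739 CPM (1.81). *Rhox6* (1.39) and *Rhox13* (1.18) were higher too, and *Rhox10* had 0.08 without passing. The ΔN libraries were below the parental ones for *Rhox1*, *Rhox6*, *Rhox9* and *Rhox13*, whereas the WT libraries were above them for *Rhox1* and *Rhox9*. Of 19 tested *Platr* genes 6 were higher and 0 lower by limma at the limits used, with 3 others lower at an adjusted p under 0.05 but a smaller fold. *Platr14*, on chromosome 2, had 33.4 and 40.2 against 7.08 and 7.29 CPM (2.20), and *Platr3*, on the same chromosome, 9.27 and 9.09 against 1.86 and 0.898 CPM (2.13). *Platr10* had 87.6 and 86.9 against 78.1 and 80.5 CPM (0.14) and did not pass. In the large *Zfp* family, 16 of 342 tested genes were higher and 33 lower, 7 of the latter on chromosome 6, with a median of -0.17. The counts of these families stand beside 7.25% higher and 5.45% lower over all tested genes.

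Members without a single read in 1 line were mostly of low level. There were 430 with 0 reads in both libraries of the ΔN line and 387 with 0 reads in both libraries of the WT line. Of these, 14 had at least 15 reads in the WT line and 2 at least 15 reads in the ΔN line. Apart from *Plagl1* and *Kdm5d*, the 14 genes had between 15 and 29 reads over the WT line, among them *Pnoc*, the gene of the neuropeptide nociceptin, with 9 and 11 reads, 0 in the ΔN line and 7 and 12 in parental ESCs. It was at least 6.83-fold higher in the WT line, counting error only.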
